A study of Caenorhabditis elegans with 2 samples.

Results

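The 10 genes described here encode the muscle attachment and dense body machinery of Caenorhabditis elegans, and were examined in a chromatin immunoprecipitation sequencing (ChIP-seq) study of the homeodomain factor CEH-22. They were unc-52, pat-2, pat-3, unc-112, pat-4, unc-97, pat-6, unc-95, deb-1 and atn-1, chosen by name as 10 of the 19985 protein-coding genes of the Ensembl annotation of WBcel235 (ce11). The study consisted of 2 biological replicates that form 1 group, so no condition was compared with another. Both came from whole late embryos of strain OP389, genotype unc-119(tm4063) III; wgIs389, a transgenic line whose CEH-22 ends in a C-terminal GFP-FLAG tag. The animals are labelled as pooled male and female, with their age unknown. The antibody is listed as ceh-22, and the labels do not say whether it recognised the tag. The promoter of the transgene is not given in the sources used here, and the control named in the labels was not analysed here. Chromatin of all tissues was sonicated together, so the values cannot be attributed to muscle cells and no marker of cell type can be checked in them.

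Body wall muscle of the worm is anchored to the basement membrane at dense bodies, which resemble both the Z-disc and the focal adhesion, and at M-lines. In both structures perlecan in the matrix lies outside an integrin heterodimer, and kindlin, integrin-linked kinase, PINCH and parvin assemble on the integrin tail, with vinculin and alpha-actinin linking the dense body to actin. CEH-22 belongs to the NK-2 class of homeodomain proteins and is known for activating pharyngeal muscle genes, and NK-2 proteins bind sites of the form TNAAGTG.

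Regions were taken from 4 peak lists. The first was a thresholded list of 285 peaks, and the second the pooled list of 19644 regions that it was drawn from. The others were a list of 30000 regions for each replicate. Both the pooled list and the replicate lists include background, so a region in them need not be a called peak. Each region carries a signal value given by the authors' peak caller, on a scale that is not stated and that differs between the lists, so regions were compared by rank within a list, with rank 1 the strongest. A region belonged to a gene if its summit lay between 5000 bp upstream of the annotated 5′ end and the 3′ end. Signal values ran from 9.33 to 454 with a median of 12.03 in the pooled list, from 2.42 to 194 with a median of 3.83 in replicate 1, and from 6.04 to 255 with a median of 8.33 in replicate 2. Read depth is unknown. The thresholded peaks were the 285 pooled regions of the highest signal value, down to 32.2.

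An NK-2 site, here TCAAGTG or TTAAGTG on either strand, lay within 100 bp of the summit in 7 of the 36 pooled regions of the 10 genes, 5 at unc-52 and 2 at deb-1. These 7 sites are printed with 10 bases on each side, because they are the NK-2 sites within 100 bp of a pooled summit at these genes. None of the 7 regions was a thresholded peak, and the pooled list includes background, so a site printed here need not be a bound one. Each is written 5′ to 3′ on the strand that reads TCAAGTG, which is in capitals. Sequence is RefSeq's for WBcel235, and the distance given is from the gene's annotated 5′ end.
deb-1, 2678 bp upstream, intergenic, chrIV:7096931-7096957, minus strand: tgcgcgggaaTCAAGTGcactaactaa
deb-1, 1688 bp upstream, intergenic, chrIV:7095941-7095967, plus strand: gtgggaaaggTCAAGTGggaccaacta
unc-52, 1053 bp upstream, intergenic, chrII:14685496-14685522, plus strand: tttcacatccTCAAGTGtttataaata
unc-52, 20780 bp inside, coding exon, chrII:14663663-14663689, plus strand: ctgttcaactTCAAGTGcaagaccatc
unc-52, 15601 bp inside, intron, chrII:14668842-14668868, minus strand: gtgttcaagtTCAAGTGgtttgctact
unc-52, 23014 bp inside, untranslated exon, chrII:14661429-14661455, plus strand: gcaaaacggaTCAAGTGattgcgggaa
unc-52, 34774 bp inside, coding exon, chrII:14649669-14649695, minus strand: tgattgctaaTCAAGTGgtactcactg
All 7 read TCAAGTG, and TTAAGTG was within 100 bp of no pooled summit of these genes. TCAAGTG was also the more frequent word over all pooled regions, where 873 of the 1190 with an NK-2 site held it.

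None of the 10 genes had a thresholded peak, whereas 2.25% of all protein-coding genes had one. A count of 0 of 10 has a 95% Wilson interval that reaches 27.8%, so a share near that of all genes was not detectable as different with so few genes. In the pooled list, 9 of the 10 genes had at least 1 region, and 74.8% of all genes did. Only pat-2 had none. One of the 1000 strongest pooled regions lay in the window of 2 genes, pat-3 and unc-112, against 7.28% of all genes.

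The strongest region of each gene was ranked against that of every other gene, and the percentile is the share of genes whose strongest region ranked at or above it. The median percentile of the 10 genes was 13.2 in the pooled list, 12.9 in replicate 1 and 13.9 in replicate 2, where by construction the median of all genes lies at the midpoint (50.01 in the pooled list). Long windows have more chances of holding a strong region, and the windows of the 10 genes had a median length of 10288 bp against 7026 bp for all genes. Ranked only against genes whose window length was within 25% of their own, the 10 genes had a median percentile of 18.9. In the pooled list 7 of the genes stood at percentile 15.1 or stronger, and unc-97, unc-95 and pat-2 stood lower. Across the 9 genes with a region in both replicates, Spearman's rho between the replicates' best ranks was 0.37, and it was 0.31 across the 15816 genes of the genome with both, as a description over genes that share the same libraries.

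**Figure D1:**
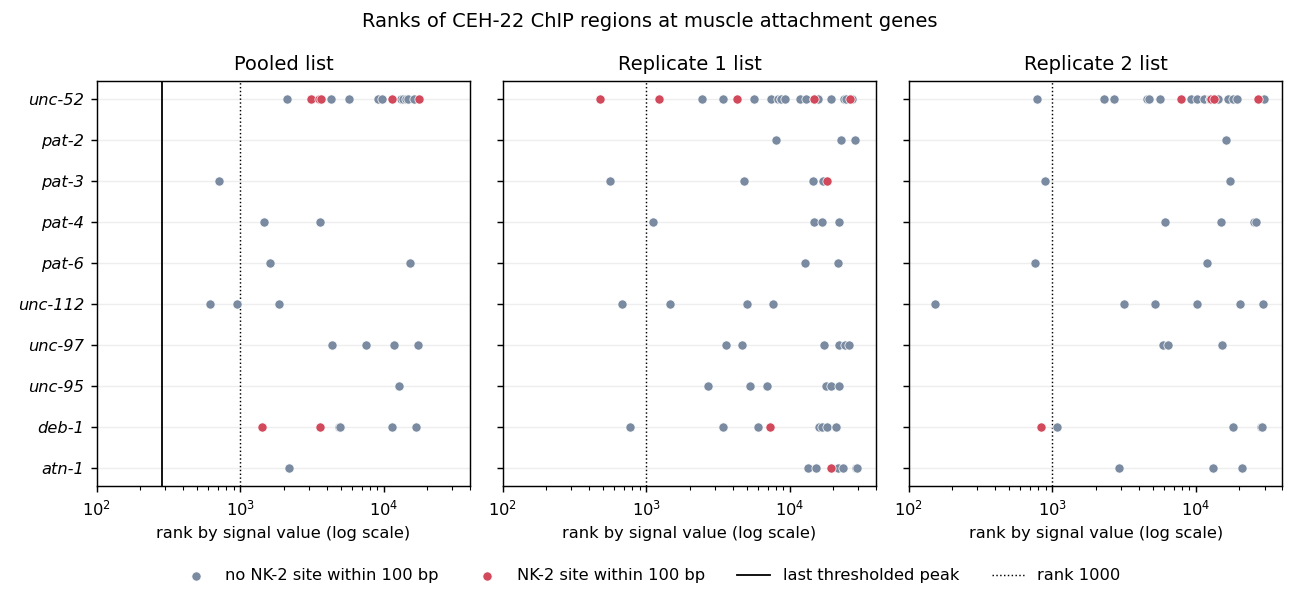
Rank by signal value (log axis, 1 is strongest) of every region in the windows of the 10 genes, in the pooled list and for both replicates. Each point is a region, red where an NK-2 site lay within 100 bp of its summit. The solid line marks the last of the 285 thresholded peaks, and all 36 pooled regions lie to its right. The dotted line marks rank 1000, with only regions of pat-3 and unc-112 to its left in the pooled list.

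The matrix ligand unc-52, which encodes perlecan, had the most regions, 16 pooled, 22 in replicate 1 and 22 in replicate 2. The gene lies at chrII:14647321-14684456 on the minus strand, and its window of 42136 bp, which also takes in the 5′ end of the gene hhat-1, was the longest of the 10. Its regions were also dense, at 3.797 pooled regions per 10 kb against a median of 1.65 over all genes. Its strongest region had signal value 18.2 and rank 2113 in the pooled list, 12.7 and rank 475 in replicate 1, and 17.2 and rank 785 in replicate 2. These put unc-52 at percentile 14.8, 3.45 and 6.10, but among the 79 genes of like window length at 51.9, 18.99 and 34.2. Against genes as long as itself, then, its pooled standing was near the middle.

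The replicates placed the strongest unc-52 region at different points, 2508 bp apart. The strongest pooled region, chrII:14682787-14683130, had its summit 1497 bp inside the gene in an intron and matched rank 785 of replicate 2, while the nearest summit of replicate 1 was 261 bp away at rank 12914. The second, chrII:14685295-14685638 at rank 3106, had its summit 1011 bp upstream in intergenic sequence and matched rank 475 of replicate 1, while the nearest summit of replicate 2 was 964 bp away. Each of these summits was thus matched in 1 replicate only. The upstream region holds an NK-2 site 42 bp from its summit, and the 201 bases around that summit are printed to show the site in its setting, in capitals. On the plus strand as written, the 5′ end of unc-52 lies to the left.
unc-52 upstream region, chrII:14685367-14685567, plus strand: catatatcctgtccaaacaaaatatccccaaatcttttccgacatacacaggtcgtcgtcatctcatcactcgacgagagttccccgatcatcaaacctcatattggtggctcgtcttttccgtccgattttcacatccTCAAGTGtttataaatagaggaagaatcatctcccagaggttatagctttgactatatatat

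Inside unc-52, 2 regions with NK-2 sites were found in both replicates within 200 bp. The region at rank 3516, signal value 15.99, had its summit 20758 bp inside the gene in a coding exon, with a site 22 bp away. It matched rank 1229 in replicate 1 and rank 13999 in replicate 2, whose summit was 200 bp off. The region at rank 3625, signal value 15.9, had its summit 15529 bp inside in an intron, with a site 72 bp away, and matched ranks 4288 and 13353 at offsets of 0 and 1 bp. Both ranked higher in replicate 1 than in replicate 2. The remaining regions with a site were weaker, at pooled ranks 11308 and 17459, and were matched in replicate 2 only. The window held 19 NK-2 sites, or 4.51 per 10 kb against a median of 1.86 and a mean of 2.33 over all genes, and 8 of them lay in coding exons of unc-52 itself.

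**Figure D2:**
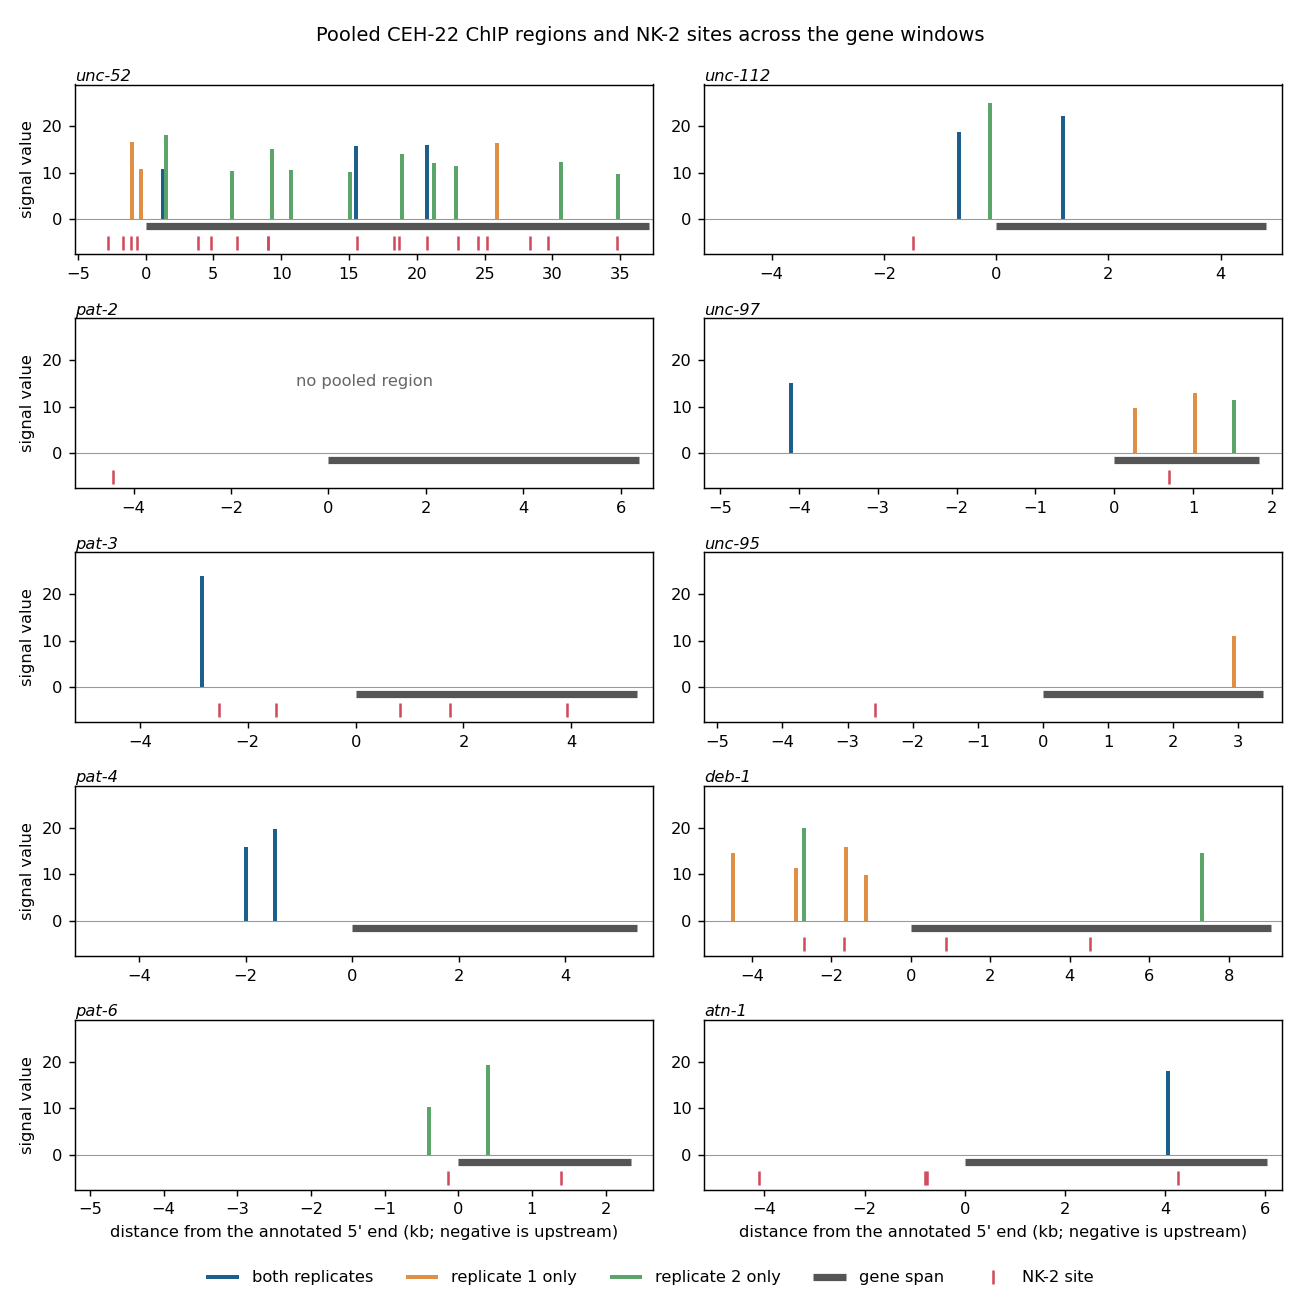
Signal value of each pooled region (vertical lines, scale not stated) by distance from the annotated 5′ end in kb, for the 10 genes, with the gene span in grey and NK-2 sites as red ticks. Line colour shows whether the summit was matched within 200 bp in both replicates, replicate 1 only or replicate 2 only. The lines of unc-52 run across the whole gene, and those of pat-3, pat-4 and the strongest 3 of deb-1 stand upstream.

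The integrin receptor subunits differed from each other. The alpha subunit pat-2, at chrIII:8818899-8825266 on the plus strand, had no pooled region. It had 3 regions in replicate 1, the strongest at rank 8004 with signal value 5.04, and 1 in replicate 2 at rank 16232 with signal value 8.08, and these were 116 bp apart in intergenic sequence 2869 and 2985 bp upstream. The replicates thus placed a weak region at nearly the same point, at percentile 43.9 and 69.6, and the pooled list did not hold it.

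The beta subunit pat-3, at chrIII:3908931-3914149 on the minus strand, had 1 pooled region, at rank 709 with signal value 23.9. The strongest region of replicate 1 was at rank 559 with signal value 11.97, and that of replicate 2 at rank 893 with signal value 16.8. All 3 summits fell within 191 bp, and pat-3 stood at percentile 5.33, 4.15 and 6.94 in the pooled list and the replicates. Among the 5819 genes of like window length these were 6.08, 5.05 and 7.85, so both replicates placed pat-3 in the upper 10% of genes. The region, chrIII:3916830-3917173, lay 2853 bp upstream of pat-3 but only 35 bp inside the neighbouring gene ccdc-47, in its coding exon. No NK-2 site lay within 100 bp of this summit. The closest of 5 in the window was 317 bp away. When a region was given only to the gene with the nearest 5′ end, pat-3 had no pooled region.

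Kindlin is encoded by unc-112, at chrV:14691855-14696654 on the minus strand, and its region was the highest ranked of the 10 genes in the pooled list. The strongest pooled region had rank 611 and signal value 24.96, that of replicate 1 rank 678 and signal value 11.2, and that of replicate 2 rank 152 and signal value 25.2. The percentiles were 4.64, 4.96 and 1.20, and 5.16, 5.61 and 1.34 among the 6719 genes of like window length. The gene was high in both replicates, but for regions 1385 bp apart.

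The strongest pooled region of unc-112, chrV:14696598-14696941, had its summit 116 bp upstream of the 5′ end, closer than that of any other of these genes' strongest regions. It matched rank 152 of replicate 2, and the nearest summit of replicate 1 was 286 bp away at rank 1454. The second region, chrV:14695293-14695636 at rank 950 with signal value 22.2, had its summit 1189 bp inside the gene in an intron and matched rank 678 in replicate 1 and 5156 in replicate 2. The third, at rank 1861 with signal value 18.7 and 665 bp upstream, was also matched in both, at ranks 7627 and 3156. All 3 regions thus lay within 1189 bp of the 5′ end and were among the 1861 strongest of 19644. None had an NK-2 site within 100 bp, and the only site in the window, TTAAGTG 1473 bp upstream, was 808 bp from a pooled summit. The 201 bases around the promoter summit are printed on the plus strand, all in lower case because they hold no site, as the strongest region of the set.
unc-112 promoter region, chrV:14696670-14696870, plus strand: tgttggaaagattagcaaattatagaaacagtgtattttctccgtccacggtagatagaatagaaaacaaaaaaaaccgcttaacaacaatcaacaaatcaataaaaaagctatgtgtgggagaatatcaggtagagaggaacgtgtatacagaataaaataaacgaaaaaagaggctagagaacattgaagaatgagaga

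Integrin-linked kinase, PINCH and parvin, encoded by pat-4, unc-97 and pat-6, form the complex that joins the integrin tail to the cytoskeleton. The strongest region of pat-4, at chrIII:89453-94809 on the minus strand, had rank 1464 and signal value 19.8 in the pooled list, rank 1110 and 9.45 in replicate 1, and rank 6118 and 11.0 in replicate 2. Its percentiles were 10.6, 7.89 and 37.7, so replicate 2 ranked it much lower than replicate 1. The pooled summit, in chrIII:96086-96429, lay 1449 bp upstream in intergenic sequence and only 860 bp from the 5′ end of the neighbouring C29F9.8. It was matched in both replicates, at ranks 1110 and 14910. A second region at rank 3585 lay 1999 bp upstream in a coding exon of C29F9.8, with the E-box CAGCTG within 100 bp of its summit, and was matched at ranks 14788 and 6118. The order of these regions was thus opposite in the replicates. The window of pat-4 was the only one of the 10 with no NK-2 site.

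For unc-97, at chrX:5593133-5594965 on the plus strand, the best ranks were 4359 in the pooled list, 3596 in replicate 1 and 5850 in replicate 2, with signal values 15.1, 6.59 and 11.1. The percentiles of 27.7, 23.0 and 36.6 were close to each other. The strongest pooled region lay 4104 bp upstream, in a coding exon of mec-2, and was matched in both replicates at ranks 17288 and 6380. The other 3 pooled regions lay inside unc-97, at rank 7530 in an intron, rank 11676 in an untranslated exon and rank 17323 in a coding exon, and each was matched in 1 replicate. The first was matched in replicate 1 and the second in replicate 2, at the ranks that were each replicate's best for unc-97.

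The parvin gene pat-6, at chrIV:261886-264232 on the minus strand, rested on replicate 2. Its strongest region had rank 1608 and signal value 19.3 in the pooled list and rank 756 and 17.4 in replicate 2, but the best of replicate 1 was rank 12687 and 4.16, at a point 2990 bp away. The percentiles were 11.6, 59.2 and 5.85 in the pooled list, replicate 1 and replicate 2. The pooled summit, in chrIV:263662-264005, lay 398 bp inside pat-6 in a coding exon, and the nearest summit of replicate 1 was 594 bp away at rank 21510. A second pooled region, 396 bp upstream at rank 15276, was also matched in replicate 2 only.

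The LIM domain protein UNC-95, which is known to be needed for dense body and M-line assembly, had the lowest ranked strongest region among the 9 genes with any pooled region. The unc-95 region had rank 12773 and signal value 11.0 in the pooled list, and the best of replicate 1 was rank 2680 with signal value 7.22. Replicate 2 had no region in the window, and its nearest summit to the pooled one was 8123 bp away. The percentiles were 59.9 in the pooled list, 17.9 in replicate 1 and 100 in replicate 2. The pooled summit lay 2930 bp inside the gene in a coding exon. The 5′ end of the neighbouring Y105E8A.32 was nearer to it, at 2382 bp.

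The actin linkers were deb-1, which encodes vinculin, and atn-1, which encodes alpha-actinin. The gene deb-1, at chrIV:7085215-7094266 on the minus strand, had 6 pooled regions. Its strongest had rank 1407 and signal value 19.9 in the pooled list, rank 764 and 10.8 in replicate 1, and rank 834 and 17.03 in replicate 2. The percentiles were 10.2, 5.55 and 6.39, or 17.4, 10.3 and 10.9 among the 2086 genes of like window length. Like unc-112, deb-1 was high in both replicates but for different regions, here 1797 bp apart.

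The strongest pooled region of deb-1 had its summit 2687 bp upstream, in intergenic sequence, 9 bp from an NK-2 site. The 5′ end of the neighbouring ZC477.4 was nearer to this summit, at 1831 bp. The region was the only strongest one of the 10 genes with a site within 100 bp, a count of 1 of 10 against 4.37% of all genes. The summit matched rank 834 of replicate 2, and the nearest of replicate 1 was 214 bp away at rank 3440, just outside the 200 bp allowed for a match. The second region, at rank 3596 with signal value 15.9, had its summit 1637 bp upstream and a site 51 bp away, and was matched in replicate 1 only, at rank 7314. A further region 4486 bp upstream, at rank 4904, matched the best of replicate 1 at rank 764 and lay 32 bp inside ZC477.4, in its coding exon. The fourth, at rank 4976, lay 7322 bp inside deb-1 in an intron and matched rank 1081 of replicate 2. The 201 bases around the first 2 summits are printed on the plus strand, since they carry both of the upstream sites of deb-1, in capitals. In the first region the plus strand reads the reverse complement, CACTTGA.
deb-1 first region, chrIV:7096853-7097053, plus strand: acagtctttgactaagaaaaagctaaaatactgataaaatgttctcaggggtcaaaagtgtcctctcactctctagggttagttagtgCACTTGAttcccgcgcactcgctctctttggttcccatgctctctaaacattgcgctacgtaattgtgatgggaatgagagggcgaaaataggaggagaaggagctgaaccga
deb-1 second region, chrIV:7095803-7096003, plus strand: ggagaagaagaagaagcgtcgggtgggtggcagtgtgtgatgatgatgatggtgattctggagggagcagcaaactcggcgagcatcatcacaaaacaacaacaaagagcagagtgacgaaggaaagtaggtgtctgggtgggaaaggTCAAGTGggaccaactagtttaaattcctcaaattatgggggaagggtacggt

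The alpha-actinin gene atn-1, at chrV:12478411-12484449 on the plus strand, had 1 pooled region. It had rank 2168 and signal value 18.0 in the pooled list, rank 2897 and 13.2 in replicate 2, and only rank 13270 and 4.08 in replicate 1. All 3 summits nevertheless lay within 133 bp, in a coding exon 4051 bp inside the gene at the pooled summit. The 5′ end of the neighbouring srt-39 was nearer to the pooled summit, at 2423 bp. The percentiles were 15.1 in the pooled list, 60.9 in replicate 1 and 20.9 in replicate 2. Upstream of atn-1, a weak region of replicate 1, at rank 19425 and 784 bp from the 5′ end, had 2 NK-2 sites within 100 bp of its summit, and neither the pooled list nor replicate 2 had a summit within 200 bp.

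**Figure D3:**
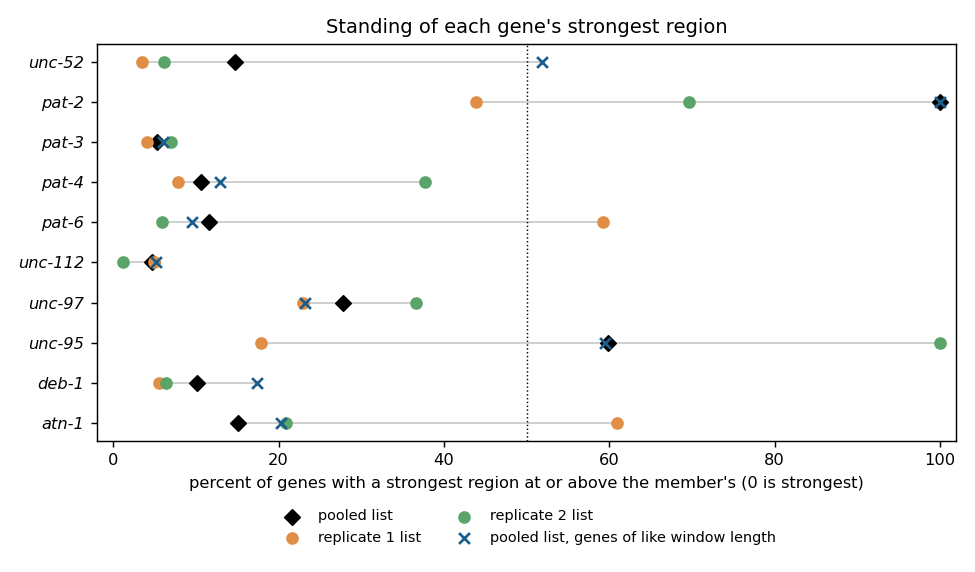
Percentile of each gene's strongest region (horizontal axis, percent of genes with a strongest region at or above it, 0 is strongest) in the pooled list and each replicate, and in the pooled list among genes of like window length. The dotted line is the midpoint of all genes. The marks of pat-3 and unc-112 lie together between 1.20 and 6.94, while those of pat-6 run from 5.85 to 59.2 and those of unc-95 from 17.9 to 100.

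The replicates were compared over the whole set. The strongest pooled region had a summit within 200 bp in both replicate lists in 4 of the 10 genes, pat-3, pat-4, unc-97 and atn-1, against 33.0% of all genes. The strongest regions of the 2 replicates lay within 200 bp of each other in 3 of 10, pat-2, pat-3 and atn-1, against 12.3% of all genes. Both shares over all genes count genes without a region as unmatched. Among genes with a pooled region, the first was 6600 of 14955, beside 4 of 9 members. Without regard to position, 5 genes in each replicate had a region in the upper 10%, and 4 of 10, unc-52, pat-3, unc-112 and deb-1, did so in both replicates, against 3.76% of all genes. Among genes of like window length this held for only 2 of 10, pat-3 and unc-112, against 3.61% of all genes, since unc-52 and deb-1 left the upper 10%. Only pat-3 was in all of these groups. Over single regions, 10 of 36 pooled regions were matched in both replicates, or 27.8% against 35.4% of all pooled regions. A match in replicate 1 only was found for 10, or 27.8% against 14.8% of all pooled regions, and in replicate 2 only for 16, or 44.4% against 46.4%.

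Of the 36 pooled regions, 14 lay upstream of the gene and 22 inside it. By annotation, 10 were intergenic, 12 in introns, 12 in coding exons and 2 in untranslated exons. These were 27.8, 33.3, 33.3 and 5.56% of the regions, near the 33.6, 30.9, 30.6 and 4.95% of all pooled regions. The 5′ end of another gene was nearer than the member's own for 21 of the 36, and for 5 of the 9 strongest regions. The shares over all genes were not taken for these counts or for the 14 upstream and 22 inside. They cannot be read as particular to these genes. The GC content around the summit averaged 39.7%, against 39.9% for all pooled regions, and 42.7% in the 7 with an NK-2 site.

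NK-2 sites were within 100 bp of the summit in 19.4% of the 36 regions (95% Wilson interval 9.75 to 35.03%), against 6.06% of all pooled regions and 11.2% of thresholded peaks. The share was 31.2% for the 16 regions of unc-52, and 2 of the other 20 had a site, both at deb-1. So the share of the set rests on unc-52, whose regions share a gene and its sequence. The reversed word, GTGAACT or GTGAATT, which has the same base composition, was near 2 of 36 summits, 5.56% against 5.72% of all pooled regions. The E-boxes CAGCTG and CACCTG, sequences that basic helix-loop-helix factors bind, were near 1 and 2 summits, or 2.78 and 5.56%, against 5.21 and 6.20%. Seen from the sites, the 10 windows held 38, of which 23 read TCAAGTG and 15 TTAAGTG. At least 1 was present in 9 of 10 genes. The share over all genes was not taken, but their mean was 2.33 sites per 10 kb, so most windows of this length may hold one. A pooled summit lay within 100 bp of 7 of the 38, 18.4% (9.22 to 33.4%), against 5.20% of the 23609 sites of the nuclear genome. The window of unc-52, whose regions were also dense, held 19 of the 38 and 5 of the 7. Both intervals count regions or sites as independent, which those of 1 gene are not. Neither interval can thus be read as a contrast with all regions or sites. Replicate 1 had a summit within 100 bp of 10 sites and replicate 2 of 5, and the genome shares for these were not taken.

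**Figure D4:**
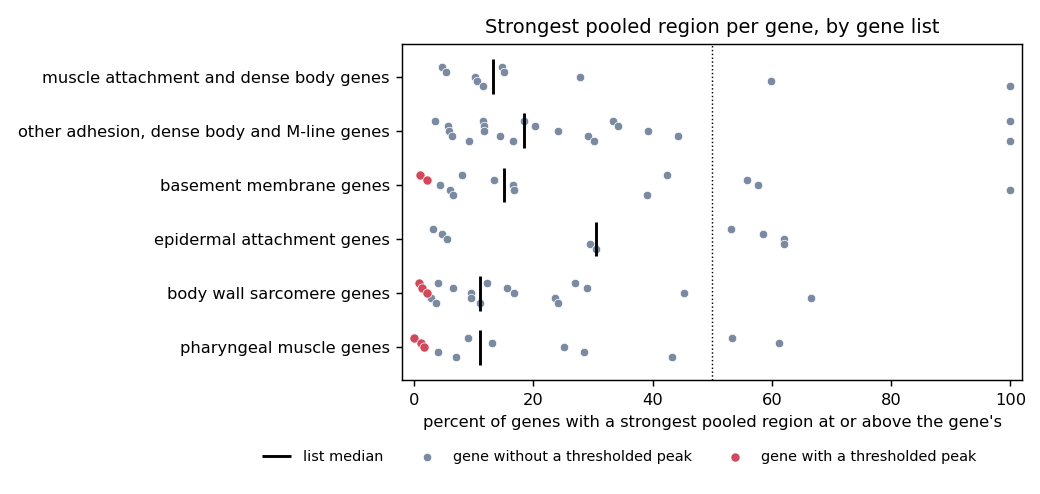
Percentile of the strongest pooled region of each gene (horizontal axis, percent of genes at or above it, 0 is strongest) for the 10 muscle attachment and dense body genes and 5 other gene lists. Points are genes, red where the window held a thresholded peak, and bars are list medians. No red point lies in the row of the 10 genes, whose median is 13.2.

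The 10 genes were set beside 5 lists of related genes, with no test between lists. The 21 other adhesion, dense body and M-line genes also had no thresholded peak, and 4 had one of the 1000 strongest regions, namely unc-89 (obscurin) at rank 454, cpna-1 (copine) at rank 757, tln-1 (talin) at rank 781 and git-1 at rank 863. Their median percentile was 18.4, but 35.2 among genes of like window length. None of the 21 had an NK-2 site at the strongest region, against 4.37% of all genes, so its absence from so short a list says little. Both lists thus held regions among the strongest 1000, and neither held a thresholded peak. Only 2.25% of all genes had such a peak, so its absence from lists this short says little. Regions among the strongest 1000 were not particular to these lists. They lay in 5 of 14 basement membrane, 3 of 9 epidermal attachment, 7 of 19 sarcomere and 5 of 12 pharyngeal genes, against 7.28% of all genes. An NK-2 site at the strongest region was found in 3 of 19 sarcomere and 3 of 12 pharyngeal genes. No basement membrane or epidermal attachment gene had one.

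Thresholded peaks were present in 2 of 14 basement membrane genes, him-4 (hemicentin) at rank 122 and lam-1 (laminin beta) at rank 267, with a list median of 15.01, or 20.4 among genes of like window length. No thresholded peak was present in the 9 epidermal attachment genes, of which pat-12, vab-10 and let-805 had a region in the strongest 1000 and whose median was 30.6, or 59.7 among genes of like window length, on the other side of the midpoint. In the body wall sarcomere list 3 of 19 had one, lev-11 (tropomyosin), act-4 (actin) and unc-60 (cofilin), at ranks 95, 173 and 271. In the pharyngeal muscle list 3 of 12 had one, ceh-22 itself, tnt-4 (troponin T) and gar-3 (a muscarinic receptor), at ranks 2, 152 and 206. The strain carries a ceh-22 transgene, and its part in the signal at ceh-22 was not tested. The medians of the sarcomere and pharyngeal lists were 11.0 and 11.0, or 9.51 and 10.3 among genes of like window length, against 18.9 for the 10 genes.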

How the data were processed

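CEH-22 ChIP-seq regions of 2 biological replicates (1 group) were read from the deposited ce11 lists. The deposited score of a region is its signal value from the authors' peak calling, whose scale no source states. Per the deposited file listing, the pooled and replicate lists include background, and the pooled list was made from both replicates. The thresholded list came from IDR, a method that uses how far ranks repeat between lists. Its peaks were not all matched in both replicates within 200 bp, and that of unc-60, at rank 271, was not. Which aligner and caller were run is not given in the sources used here. Lists on ce10 served only to check ranks. Signal tracks and control samples were not used here. Without counts, the depth and its precision are unknown.

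Genes came from Ensembl release 115 and sequence from RefSeq, both of WBcel235. Coordinates are 1-based. A gene's 5′ end is the outer end of its annotated span. Summits were matched between lists within 200 bp, and motifs searched in 201 bases around the summit. Percentiles rank each of 19985 genes by its strongest region, with genes lacking one last. No test was run, since 1 group allows no contrast. Wilson intervals cover counting error only, and the 2 replicates' spread may be technical.

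The members and lists were chosen with earlier results of these data known, and all 10 members are described. Genes of other lists were named where they had a thresholded peak or stood among the 5 best ranked of their list. The distance between the replicates' strongest regions and the upper 10% in both were chosen after values were seen. Alternative windows, gene assignment, matching distances, rank limits and leaving out each replicate were tried. Assignment, matching and motif functions were tested on simulated data. Python 3.11.15, pandas 2.3.3, numpy 2.4.6, SciPy 1.17.1 and matplotlib 3.10.9 were used.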

Additional observations from a re-analysis of the deposited data

How the results depend on the processing

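No member had a thresholded peak under any alternative tried. The count with a region among the strongest 1000, which was 2, became 1 with windows of 1000 or 2000 bp upstream or with regions given only to the nearest 5′ end, 0 for the strongest 500 and 5 for the strongest 2000, and was 4 to 5 in single replicates. The median percentile of 13.2 became 21.4 with 1000 bp upstream, 19.3 with 10000 bp, 57.4 with the nearest 5′ end only, 15.5 among genes with a pooled region and 18.9 among genes of like window length, and was 12.9 to 13.9 in single replicates. The count of 4 members matched in both replicates became 1 with 1000 bp upstream, 2 with 2000 bp, 7 with 10000 bp, 1 with the nearest 5′ end only, 2 with matching within 100 bp and 7 within 500 bp. The count of 1 with an NK-2 site at the strongest region became 0 with 1000 bp upstream and 2 over any pooled region. The shares over all genes were not taken at these alternative settings. None of these counts can thus be set against all genes or read as particular to the members. The count of 4 in the upper 10% of both replicates became 2 among genes of like window length, an alternative chosen after seeing the data. Of 89 alternative percentiles of single members, 32 moved by more than the replicate SD. That SD was each member's own, from its 2 single-replicate percentiles, which were also among the 89. It is wider for members whose replicates differ, so the count does not measure how stable the ranks were. The nearest 5′ end alternative left pat-3, pat-4, unc-95 and atn-1 without a pooled region, by construction. Together with pat-2, which also had none, they were set to 100. The median of 57.4 is thus the midpoint between 100 and unc-97 at 14.8, and no member stood near it. The share of all genes that lost their regions in this way was not taken. No paired analysis was possible because the replicates form 1 group. Unknown depth, an unstated signal scale and 2 replicates limit the precision of every rank.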
